A study of Mus musculus with 8 samples.

Results

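The transcript levels of p53 and of 9 genes that it is known to activate were examined in single mouse embryos. The 10 genes, Trp53, Mdm2, Cdkn1a, Ccng1, Trp53inp1, Bax, Phlda3, Zmat3, Plk2 and Perp, were found by symbol among the 21182 genes of the deposited table, and all 10 were present. The samples were whole embryos of C57BL/6 background at E6.75, the embryonic day on which gastrulation is beginning, 4 labelled as triple knockouts (TKO) for the methylcytosine dioxygenases Tet1, Tet2 and Tet3 and 4 labelled Control. The sample descriptions of the Control embryos contain the letters WT (wild type), which is likewise given here as a label only. Each library came from a single embryo, and the labels give neither litter nor sex nor the kind of Tet knockout allele. Levels are in RPKM, read counts that the authors scaled by gene length and by sequencing depth.

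The transcription factor p53, encoded by Trp53, is kept scarce in unstressed cells because the ubiquitin ligase Mdm2 marks it for destruction. DNA damage and other stresses stabilise the protein, which then activates genes for cell cycle arrest, repair and cell death, and also Mdm2 itself, closing a feedback loop. Epiblast cells of the gastrulating mouse embryo are known for a low threshold for p53-dependent death, and much of the regulation of p53 acts on the protein, which RNA levels do not show.

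Promoter sequence was inspected because the list is defined by the action of p53 at these genes. RefSeq promoter windows (GRCm38.p6, 250 bases before to 50 bases after an annotated start) were at hand for 7 of the 10 genes, in 8 windows, since Cdkn1a has 2 starts; Zmat3, Perp and Trp53inp1 had no entry. Their coordinates are those of that build, while the expression values were made on mm9. The windows were searched for the p53 consensus element, a 10-base unit that reads the same on both strands, and for a tandem of that unit over 20 bases without a spacer. A tandem with 1 mismatch stood before the start of Ccng1, at bases -195 to -176, and before the upstream one of the 2 starts of Cdkn1a, at bases -51 to -32. Among all 32851 windows, 29 (0.0883%) held a tandem with at most 1 mismatch. The best tandems of Bax and Trp53 had 3 mismatches, and 6.29% of all windows held one with at most 3. Those of Mdm2, Phlda3, Plk2 and the other Cdkn1a start had 5. Sequence outside these windows, introns further downstream included, and tandems with a spacer were not searched, so an element there would be missed. A single unit without mismatch stood in 5 of the 8 windows, against 8.36% of all windows, but the genes were listed as p53 targets, so this is a description and no independent result. The stretches of 100 bases that hold the sites of the canonical arrest gene Cdkn1a (plus strand, chr17:29090879-29090978) and of Ccng1 (minus strand, chr11:40755422-40755521) are shown 5′ to 3′, with the tandem in capitals.
Cdkn1a: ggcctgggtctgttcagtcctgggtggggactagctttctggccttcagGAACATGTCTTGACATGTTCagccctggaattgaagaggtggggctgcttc
Ccng1: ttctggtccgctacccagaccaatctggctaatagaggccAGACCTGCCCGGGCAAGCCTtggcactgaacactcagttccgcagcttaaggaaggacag

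The targeted genes check the labels. Tet1 had 9.21 to 15.3 RPKM in TKO-labelled embryos and 4.93 to 5.76 RPKM in Control embryos, Tet2 had 0.598 to 0.993 and 0.444 to 0.850 RPKM, and Tet3 had 1.14 to 1.68 and 1.73 to 2.08 RPKM. The Tet1 log2 difference, 0.97, had a limma adjusted p of 0.103. That adjusted p was 0.0315 without TKO-labelled replicate 1, and 0.0784 to 0.32 without any other single embryo. In direction, Tet1 transcript thus went against the label. Tet3 was lower in every TKO-labelled than in every Control embryo (log2 difference -0.26, limma adjusted p = 0.297). Groups without overlap made up 9.41% of all tested genes in either direction, 7.55% with TKO-labelled embryos above. The Tet3 log2 difference was -0.32 after median-ratio scaling (limma adjusted p = 0.283) and -0.31 after quantile normalization (limma adjusted p = 0.26). Tet2 was too low to be tested. A gene-level value cannot show whether targeted exons are missing, so the knockout is given here as a label only. Depth, estimated from the spacing of low RPKM values, was 9900000 to 18960000 reads in TKO-labelled and 12380000 to 16420000 reads in Control embryos. The embryos also differed in markers of other tissues. The summed RPKM of 8 maternal decidua markers ran from 17.8 to 383.6 in TKO-labelled and from 5.12 to 406.1 in Control embryos, and Hoxa11 and Hand2 of that list were at 0 in some embryos. For 10 parietal endoderm markers the sums were 189.0 to 642.7 and 114.3 to 224.3, and for 9 epiblast markers 508.0 to 945.8 and 471.5 to 673.8, with no marker of either list at 0. Markers of visceral endoderm summed to 952.2 to 1240 in TKO-labelled and 496.4 to 1530 in Control embryos, and of extraembryonic ectoderm to 84.4 to 110.0 and 96.7 to 141.6. Primitive streak markers summed to 78.0 to 195.5 and 67.7 to 93.7, with Mesp1 at 0 in some embryos, and ectoplacental cone and giant cell markers to 7.99 to 130.9 and 15.9 to 32.2, with Tpbpa, Prl2c2 and Prl3b1 at 0 in some. The 4 maternal blood markers in the table, each at 0 in some embryo, summed to 0.247 to 22.4 and 0.465 to 30.2. In whole embryos, fewer cells of a type and less RNA per cell cannot be told apart.

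The TKO-labelled mean lay above the Control mean for each of the 10 genes, while limma called 0 of the 10 at an adjusted p under 0.05. Over all 10451 genes tested limma called 1, or 0.00957%, against 29 with larger and 7 with smaller TKO-labelled values without TKO-labelled replicate 1. Plk2, Ccng1 and Trp53, 3 of the 10, had an unadjusted limma p under 0.05, each with the larger mean in TKO-labelled embryos. Of all tested genes 17.5% reached that p, 13.9% with the larger mean in TKO-labelled embryos. Ccng1 and Plk2 kept such a p after median-ratio scaling and after quantile normalization, but Trp53 did not, with log2 differences of 0.42 (limma adjusted p = 0.392) and 0.39 (limma adjusted p = 0.428). There it was reached, with the larger mean in TKO-labelled embryos, by 8.03% and 7.46% of all tested genes. Plk2, 1 of the 10, had no overlap between the groups, as had 9.41% of all tested genes, 7.55% with TKO-labelled embryos above. All 10 genes passed the filter for testing, at least 1 RPKM in 4 embryos, but Plk2 did so through the TKO-labelled embryos alone, so these counts are a description. The median log2 difference, TKO-labelled minus Control on the log2(RPKM + 1) scale, was 0.28 for the 10 genes and 0.09 for all tested genes. The difference was above 0 for 10 of 10 members, for 9 after median-ratio scaling, where Perp was at -0.0035, and for 8 after quantile normalization, where Perp and Mdm2 were below 0. For all tested genes the share above 0 was 66.5%, or 53.6% and 50.4% after those scalings.

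**Figure D1:**
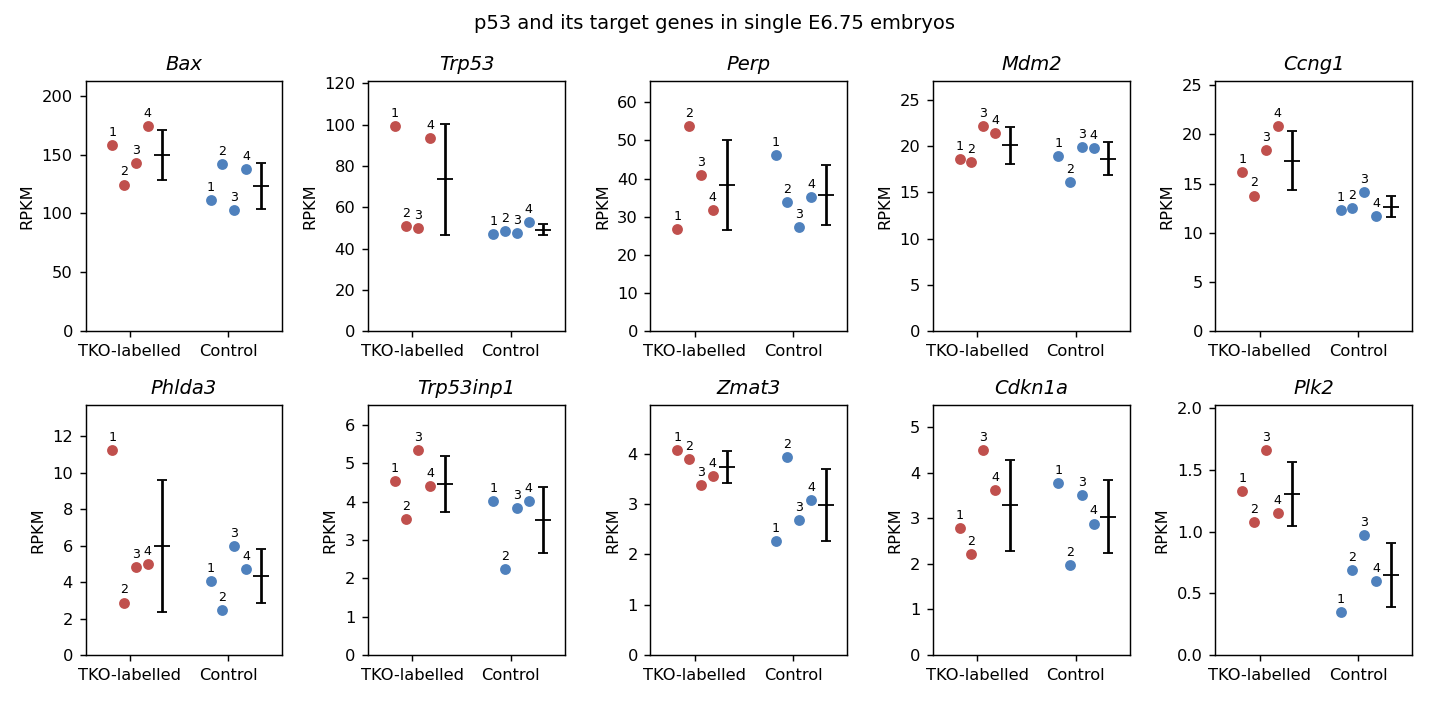
RPKM of the 10 genes (y axis, each from 0) in 4 TKO-labelled embryos (red, left) and 4 Control embryos (blue, right), ordered by mean level. Numbers are replicates and bars the mean ± SD over 4 embryos. Only the Plk2 values of the groups do not overlap, as for 9.41% of all tested genes, and Plk2 was tested through its TKO-labelled values alone. Trp53 reached 99.2 and 93.7 RPKM in TKO-labelled replicates 1 and 4 with every other embryo at 47.2 to 52.9 RPKM.

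In level per kilobase, Bax was the most abundant, with a mean of 136.7 RPKM over the 8 embryos, above 94.2% of tested genes. It was followed by Trp53 at 61.2, Perp at 37.0, Mdm2 at 19.4 (71.1% of tested genes lay below it) and Ccng1 at 15.0 RPKM. Phlda3 at 5.16, Trp53inp1 at 4.00, Zmat3 at 3.36 and Cdkn1a at 3.16 RPKM formed a lower tier, and Plk2 was lowest at 0.980 RPKM, above 0.746% of tested genes. The ranges over embryos overlapped between Trp53 and Perp, between Mdm2 and Ccng1, and between neighbours from Phlda3 to Cdkn1a. They did not overlap between Bax and Trp53, Perp and Mdm2, Ccng1 and Phlda3, or Cdkn1a and Plk2. The arrest gene Cdkn1a was thus among the scarcer transcripts of the list, and the death effector gene Bax the most plentiful, in embryos of both labels.

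Trp53 itself had 99.2, 50.9, 49.9 and 93.7 RPKM in TKO-labelled replicates 1 to 4, against 47.2, 48.5, 47.4 and 52.9 RPKM in Control replicates 1 to 4. TKO-labelled replicates 1 and 4 stood apart, while replicates 2 and 3 lay within the Control range. Trp53 averaged 73.4 ± 26.7 RPKM in TKO-labelled and 49.0 ± 2.65 RPKM in Control embryos (SD, n = 4 each), 0.50 apart in log2 (95% confidence interval 0.02 to 0.99, limma p = 0.0439 and adjusted p = 0.272, exact two-sided permutation p = 0.114). The exact test runs over all 70 assignments of the embryos, and 0.0286 is the smallest p it can give. On the log2(RPKM + 1) scale the SD of Trp53 was 0.53 in TKO-labelled and 0.075 in Control embryos. The 2 embryos with the high values also had the largest epiblast marker sums, 945.8 and 727.0, the next being 673.8 in Control replicate 2 with 48.5 RPKM of Trp53. With that sum as a covariate the log2 difference was 0.24 (limma adjusted p = 0.561), and with the parietal endoderm sum it was 1.01 (limma adjusted p = 0.310). Without TKO-labelled replicate 1 it was 0.34 (limma adjusted p = 0.406), and without replicate 4 it was 0.36 (limma adjusted p = 0.562). The part of cell composition in the Trp53 level was not tested.

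The neighbour of Trp53 on the chromosome, Wrap53 (named after its values were seen), which encodes a telomerase and Cajal body protein, had its highest value in TKO-labelled replicate 4, while replicate 1 lay near the Control embryos. Wrap53 had 13.3, 12.6, 11.9 and 17.0 RPKM in TKO-labelled replicates 1 to 4, and 11.5 to 13.01 RPKM in Control embryos (log2 difference 0.10, limma adjusted p = 0.686, and -0.0099 after quantile normalization). RefSeq also lists a Trp53 pseudogene, and whether reads were shared with it was not tested. The 3 tested genes whose standardised log2 profile over the 8 embryos was nearest to that of Trp53 were the predicted gene Gm1821, the autophagy gene Atg16l1 and the nutrient-sensing GTPase gene Rraga. Their Euclidean distances were 0.463, 0.468 and 0.515, against a median of 3.31 over all tested genes. Gm1821 had 58.3, 3.61, 3.06 and 62.7 RPKM in TKO-labelled replicates 1 to 4 and 1.78 to 2.38 RPKM in Control embryos. These genes were picked for the likeness, so their levels are a description.

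Mdm2, which encodes the ubiquitin ligase that restrains p53 and is a p53 target in turn, varied 1.38-fold between the lowest and the highest embryo, the least of the 10 genes. It had 18.5, 18.2, 22.1 and 21.4 RPKM in TKO-labelled replicates 1 to 4 and 18.9, 16.1, 19.9 and 19.8 RPKM in Control replicates 1 to 4. The groups overlapped. Of the 2 embryos with the highest Trp53 levels, TKO-labelled replicate 4 lay above every Control embryo for Mdm2, and replicate 1 within the Control range. The highest Mdm2 value was in TKO-labelled replicate 3, which had 49.9 RPKM of Trp53. Its log2 difference was 0.10 (limma adjusted p = 0.667, 95% confidence interval -0.15 to 0.35), and -0.025 after quantile normalization. Its relative Mdm4 (named after its values were seen), which binds and inhibits p53 without being a strong ligase, averaged 4.30 ± 0.57 RPKM in TKO-labelled and 4.24 ± 0.45 RPKM in Control embryos (SD, n = 4 each; limma adjusted p = 0.961), and its log2 difference of 0.02 was below 0 after either rescaling.

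Among the arrest and stress targets, Ccng1, encoding cyclin G1, a partner of the phosphatase PP2A, had 16.2, 13.8, 18.4 and 20.8 RPKM in TKO-labelled replicates 1 to 4 and 12.3, 12.5, 14.2 and 11.7 RPKM in Control replicates 1 to 4. The groups met at a single point, TKO-labelled replicate 2 lying just below Control replicate 3. The log2 values were 0.41 apart (95% confidence interval 0.12 to 0.71, limma p = 0.0110, adjusted p = 0.192), with an exact permutation p of 0.0571. Of the 7 genes with a promoter window, Ccng1 and Cdkn1a are the 2 whose tandem element is printed above.

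Cdkn1a, which encodes the cyclin-dependent kinase inhibitor p21, had 2.79, 2.22, 4.50 and 3.61 RPKM in TKO-labelled replicates 1 to 4, against 3.76, 1.98, 3.52 and 2.88 RPKM in Control replicates 1 to 4. TKO-labelled replicate 3 lay above every Control embryo and Control replicate 2 below every TKO-labelled embryo, with the others overlapping. The log2 difference was 0.08 (limma adjusted p = 0.864, 95% confidence interval -0.36 to 0.52). It was -0.052 without TKO-labelled replicate 3 and -0.060 without Control replicate 2. The estimated number of reads behind these values was 98 to 303 in TKO-labelled and 105 to 220 in Control embryos. The 3 embryos with the least Cdkn1a, Control replicate 2 and TKO-labelled replicates 2 and 1, were also the 3 with the smallest decidua marker sums, 5.12, 17.8 and 29.1. The other 5 had sums of 64.0 to 406.1, and the part of decidual tissue in the Cdkn1a level was not tested. With that sum as a covariate the log2 difference of Cdkn1a was 0.17 (limma adjusted p = 0.554). The genes with the nearest profiles were Gadd45g, a growth arrest and DNA damage inducible gene, Lrrc28 and Rnf181, at distances of 0.526, 0.552 and 0.668 against a median of 3.59. Gadd45g had 13.3, 10.6, 25.1 and 18.7 RPKM in TKO-labelled replicates 1 to 4 and 18.9, 7.74, 18.8 and 16.0 RPKM in Control replicates 1 to 4.

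**Figure D2:**
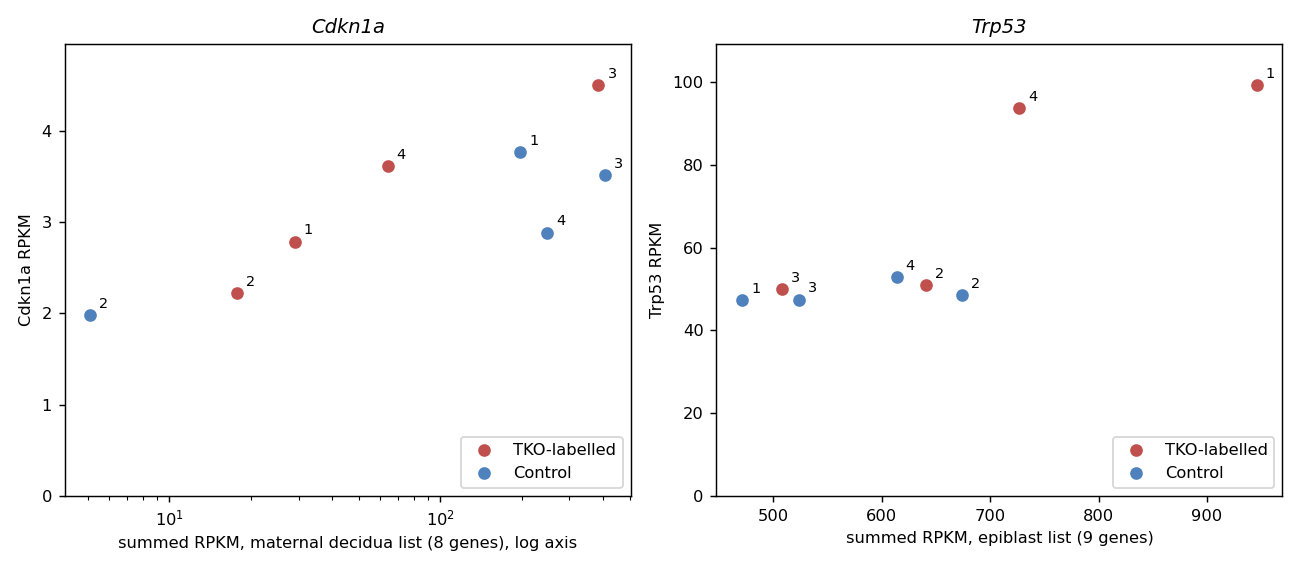
Left, Cdkn1a RPKM against the summed RPKM of 8 maternal decidua markers on a log axis. Right, Trp53 RPKM against the summed RPKM of 9 epiblast markers; each point is an embryo with its replicate number, TKO-labelled in red and Control in blue. The 3 lowest Cdkn1a values lie at decidua sums of 5.12 to 29.1, and the 2 Trp53 values above 90 RPKM lie at the largest epiblast sums, in TKO-labelled replicates 1 and 4.

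Plk2, a polo-like kinase of centriole duplication, had 1.33, 1.08, 1.66 and 1.15 RPKM in TKO-labelled replicates 1 to 4, against 0.346, 0.692, 0.972 and 0.596 RPKM in Control replicates 1 to 4. Every TKO-labelled embryo lay above every Control embryo. The averages were 1.31 ± 0.26 and 0.65 ± 0.26 RPKM (SD, n = 4 each), with log2 values 0.49 apart (95% confidence interval 0.16 to 0.82, limma p = 0.00819, adjusted p = 0.182), with an exact permutation p of 0.0286, the smallest possible. Since Plk2 was tested through its TKO-labelled values alone, its presence among the tested genes already favours a difference. About 59 to 142 reads stood behind the TKO-labelled and 26 to 54 behind the Control values, the fewest of the list in each Control embryo. In TKO-labelled replicate 2 Phlda3 had fewer, about 64 against 69. With a smaller pseudocount the difference was 0.96, on the log2(RPKM + 0.1) scale (limma adjusted p = 0.196).

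Trp53inp1, encoding a stress-induced nuclear protein that enhances p53 activity, had 4.55, 3.55, 5.35 and 4.42 RPKM in TKO-labelled replicates 1 to 4 and 4.01, 2.24, 3.83 and 4.01 RPKM in Control replicates 1 to 4. Control replicate 2 stood below all others, and the log2 difference was 0.29 (limma adjusted p = 0.403, 95% confidence interval -0.09 to 0.66). Zmat3, encoding a zinc finger RNA-binding protein, had 4.08, 3.90, 3.38 and 3.56 RPKM in TKO-labelled replicates 1 to 4 and 2.26, 3.94, 2.69 and 3.07 RPKM in Control replicates 1 to 4. Control replicate 2 alone reached into the TKO-labelled range (log2 difference 0.26, limma adjusted p = 0.369). Control replicate 2 was thus the lowest of the Control embryos for Trp53inp1 and the highest for Zmat3.

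Bax, the BCL2-family effector that permeabilises mitochondria, had 158.1, 124.6, 143.1 and 174.2 RPKM in TKO-labelled replicates 1 to 4 and 111.7, 142.1, 102.5 and 137.5 RPKM in Control replicates 1 to 4. The highest values lay in TKO-labelled replicates 4 and 1, as for Trp53, but the groups overlapped (log2 difference 0.28, limma adjusted p = 0.332, 95% confidence interval -0.03 to 0.60). Phlda3, encoding a pleckstrin-homology protein that competes with the survival kinase Akt for membrane lipids, had 11.3, 2.88, 4.82 and 4.99 RPKM in TKO-labelled replicates 1 to 4 and 4.08, 2.46, 6.00 and 4.74 RPKM in Control replicates 1 to 4. Only TKO-labelled replicate 1 exceeded the Control range, and its removal took the log2 difference to -0.0067, against 0.31 with it (limma adjusted p = 0.643). Perp, encoding a membrane protein of desmosomes and a death effector, had 26.8, 53.7, 41.0 and 31.7 RPKM in TKO-labelled replicates 1 to 4 and 46.3, 33.9, 27.2 and 35.1 RPKM in Control replicates 1 to 4. Perp was lowest in TKO-labelled replicate 1, where Trp53 and Phlda3 were highest, and its log2 difference of 0.08 (limma adjusted p = 0.873, 95% confidence interval -0.40 to 0.56) changed sign after either rescaling.

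**Figure D3:**
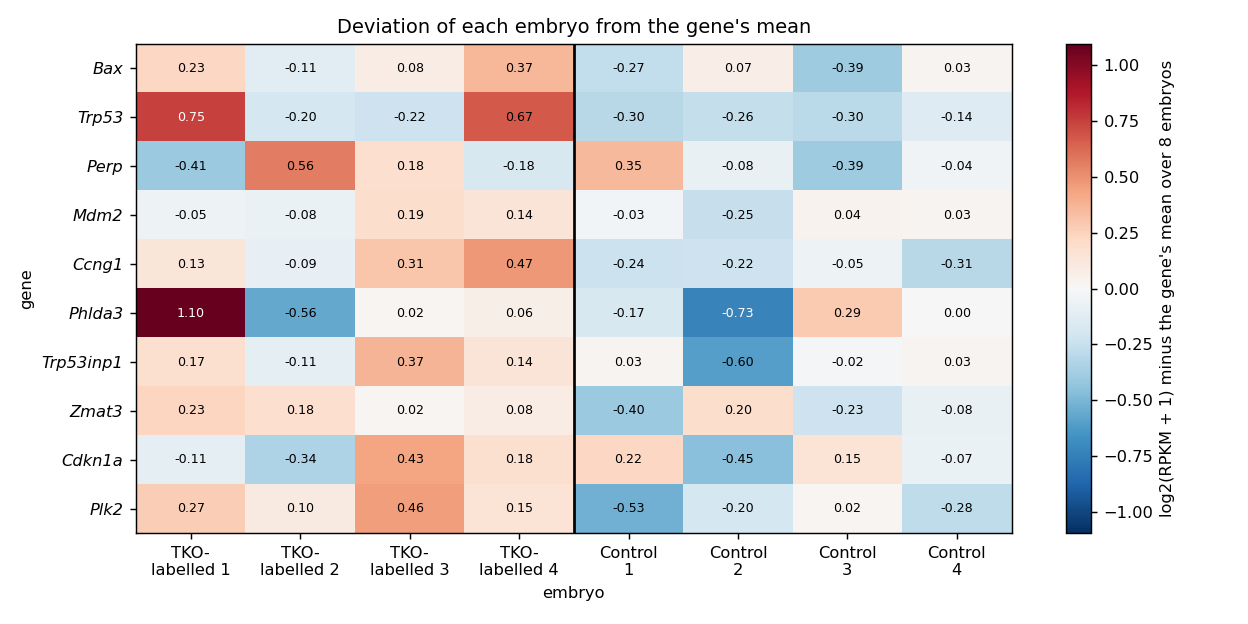
Deviation of log2(RPKM + 1) from each gene's mean over 8 embryos (colour and printed value), for the 10 genes (rows, by mean level) in 4 TKO-labelled embryos (left) and 4 Control embryos (right). TKO-labelled replicate 1 holds the largest deviations for Trp53 and Phlda3 but a negative one for Perp, and TKO-labelled replicate 2 is the lowest of its group for 7 of the 10 genes.

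Taking the 10 genes embryo by embryo, the mean log2(RPKM + 1) was 3.87, 3.58, 3.83 and 3.85 in TKO-labelled replicates 1 to 4, against 3.51, 3.39, 3.55 and 3.56 in Control replicates 1 to 4. The mean over all tested genes was 3.52 to 3.63 in TKO-labelled and 3.45 to 3.53 in Control embryos. Relative to it the 10 genes stood at 0.30, 0.059, 0.245 and 0.225 in TKO-labelled replicates 1 to 4 and at -0.020, -0.061, 0.10 and 0.040 in Control replicates 1 to 4, so that TKO-labelled replicate 2 fell inside the Control range. That embryo was the lowest of its group for 7 of the 10 genes, and Control replicate 2 the lowest of its group for 4. These 2 embryos also had the smallest decidua marker sums, 17.8 and 5.12, and the part of that tissue was not tested.

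**Figure D4:**
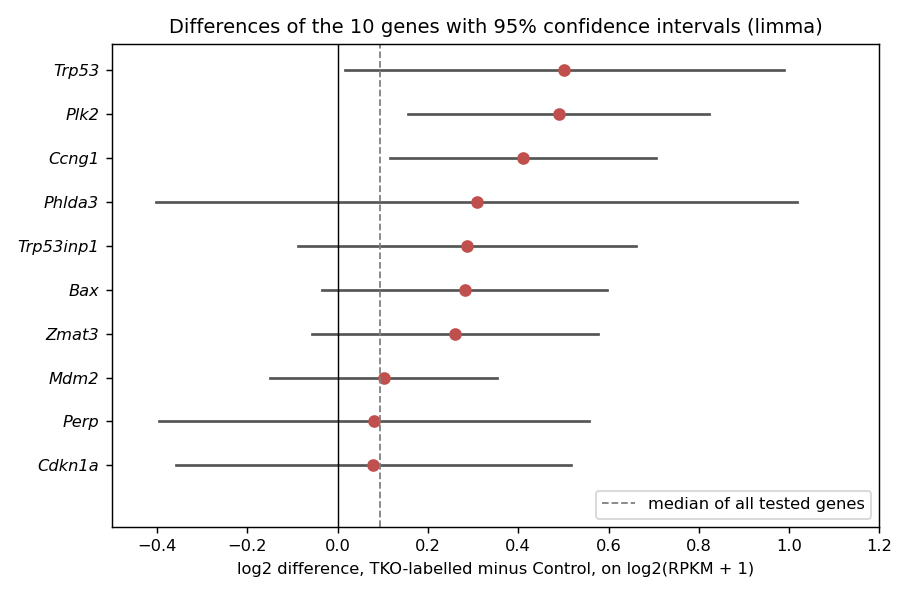
Log2 difference, TKO-labelled minus Control, on log2(RPKM + 1), with 95% confidence intervals from limma over 8 embryos, for the 10 genes. All 10 points lie above 0 in the values as deposited; after quantile normalization, not drawn, Perp and Mdm2 were below 0. The intervals of Trp53, Plk2 and Ccng1 exclude 0 before adjustment, and 17.5% of all tested genes had an unadjusted limma p under 0.05. Trp53 lost such a p after median-ratio scaling and after quantile normalization, and Plk2 was tested through its TKO-labelled values alone. The dashed line at 0.09 is the median of all tested genes.

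Further genes of the pathway were read from 6 lists, whose tested members held 0 limma calls over all genes. Their counts at an unadjusted limma p under 0.05 stand against 13.9% of all tested genes with larger TKO-labelled means and 17.5% in either direction, and groups without overlap against 9.41%. Of 20 regulators of p53, 16 were tested and 14 had positive differences, with a median of 0.10, and 2 had such a p. After median-ratio scaling 12 were positive with a median of 0.027, and after quantile normalization 9 with a median of 0.0045. After either rescaling 1 regulator had such a p, with the larger mean in TKO-labelled embryos. Of all tested genes 8.03% and 7.46% then did so. The deacetylase gene Sirt1, whose product acts on p53, averaged 13.1 ± 2.13 RPKM in TKO-labelled and 10.01 ± 0.53 RPKM in Control embryos (SD, n = 4 each), a log2 difference of 0.34 (limma adjusted p = 0.221). Rchy1, encoding another ubiquitin ligase for p53, averaged 31.2 ± 3.52 and 25.3 ± 2.50 RPKM in the same order (0.29, limma adjusted p = 0.237). These were the 2 regulators with the smallest p, and in both all TKO-labelled values lay above the Control values, as in 7.55% of all tested genes.

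Of 15 other arrest and repair targets, 11 were tested, 9 had positive differences and the median was 0.28, close to the 0.28 of the 10 genes. Sesn2, a sestrin that restrains mTORC1, averaged 2.31 ± 0.39 RPKM in TKO-labelled and 1.38 ± 0.545 RPKM in Control embryos (0.49, limma adjusted p = 0.211). Btg2, an antiproliferative gene, averaged 3.42 ± 0.345 RPKM in TKO-labelled and 2.25 ± 0.90 RPKM in Control embryos (0.48, limma adjusted p = 0.226). With Gadd45a, named after its values were seen (log2 difference 0.46, limma adjusted p = 0.237), these were the 3 of 11 at an unadjusted limma p under 0.05.

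Of 13 other apoptosis targets, 8 were tested and 4 had positive differences, 1 gene in each direction had an unadjusted limma p under 0.05, and the median was 0.09, the same as over all tested genes to 2 decimals. The leading members had opposite signs. Lrdd, an older symbol of Pidd1, whose product activates caspase-2, averaged 2.37 ± 1.00 RPKM in TKO-labelled and 1.12 ± 0.30 RPKM in Control embryos (0.63, limma adjusted p = 0.196). The death-promoting gene Siva1 averaged 201.1 ± 12.6 RPKM in TKO-labelled and 243.0 ± 25.04 RPKM in Control embryos (-0.27, limma adjusted p = 0.237), without overlap. Among 16 tested genes of the BCL2 family and caspases 9 had positive differences (median 0.02), and 2 with larger and 1 with smaller TKO-labelled means had an unadjusted limma p under 0.05. After median-ratio scaling these counts were 2 and 2, and after quantile normalization 1 and 2. Diablo, which releases caspases from their inhibitors, had 41.9 to 53.5 RPKM in TKO-labelled and 34.1 to 35.5 RPKM in Control embryos (0.41, limma adjusted p = 0.156).

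The cell cycle engine that p21 restrains gave 13 positive differences of 21 tested, with a median of 0.04. An unadjusted limma p under 0.05 was found for 4 with larger and 1 with smaller TKO-labelled means. After median-ratio scaling these counts were 2 and 1, and after quantile normalization 2 and 2. The G1 kinase gene Cdk4 had 274.9 to 412.3 RPKM in TKO-labelled and 212.8 to 240.5 RPKM in Control embryos (0.53, limma adjusted p = 0.157). The mitotic cyclin gene Ccnb1 had 125.5 to 190.2 RPKM in TKO-labelled and 86.1 to 107.5 RPKM in Control embryos (0.51, limma adjusted p = 0.173). Cdkn1b, which encodes p27, the relative of p21 (named after its values were seen), averaged 2.95 ± 0.98 RPKM in TKO-labelled and 4.41 ± 0.58 RPKM in Control embryos (-0.48, limma adjusted p = 0.225). In the 14 genes of DNA double-strand break repair, all tested, 11 differences were positive, 0 had an unadjusted limma p under 0.05, and the median was 0.13. After either rescaling 1 of these genes, with the smaller TKO-labelled mean, had such a p. The end-joining gene Xrcc6 (0.27, limma adjusted p = 0.287) and the damage mediator gene Mdc1 (-0.30, limma adjusted p = 0.305) led that list with opposite signs. After median-ratio scaling the medians were 0.21 for the 10 genes, 0.22 for other arrest and repair targets, 0.019 for other apoptosis targets, 0.051 for double-strand break repair and 0.021 for all tested genes. The BCL2 family and caspases turned to -0.050 (5 of 16 positive) and the cell cycle engine to -0.049 (10 of 21 positive). After quantile normalization the medians were 0.20 for the 10 genes, 0.196 for other arrest and repair targets, -0.012 for other apoptosis targets, -0.057 for the BCL2 family and caspases, -0.064 for the cell cycle engine, 0.0056 for double-strand break repair and 0.0020 for all tested genes.

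**Figure D5:**
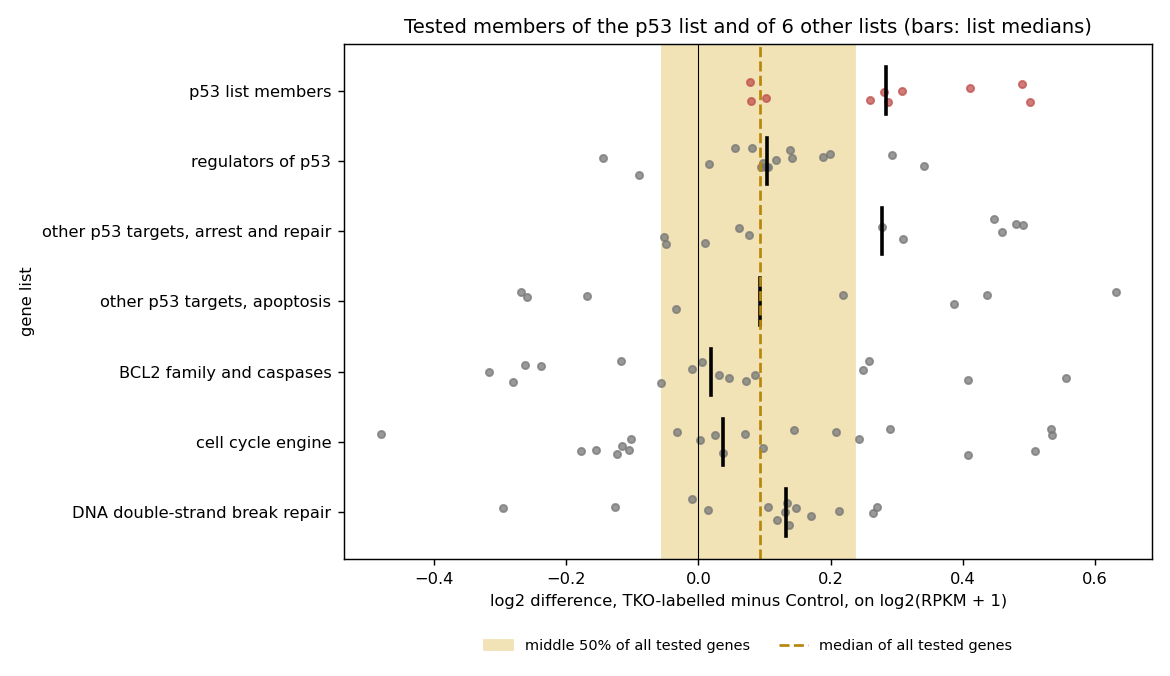
Log2 difference, TKO-labelled minus Control, of each tested gene in the p53 list (red) and 6 other lists (grey), with the list median as a bar; the shaded band, -0.05 to 0.24, holds the middle 50% of all tested genes and the dashed line at 0.09 is their median. The medians of the p53 list and of other arrest and repair targets are 0.28 each, and that of other apoptosis targets is 0.09.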

How the data were processed

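Single-embryo RNA was amplified with a SMARTer kit and sequenced from Nextera XT libraries, per the labels' protocols. The authors deposited RPKM values per gene symbol and embryo; per the submitters' processing notes HTSeq and mm9 were used. Aligner, annotation, read total and strand setting: not given in the sources used here. All 8 value columns were mapped to samples by name. Genes with at least 1 RPKM in at least 4 embryos (10451 of 21182) were tested on log2(RPKM + 1) with limma 3.58.1 in R 4.3.3 (variance trend, two-sided, Benjamini-Hochberg over all tested genes, threshold 0.05), after the code had been tested on simulated data. The limma p-values set the group difference against the spread between these embryos within groups, with variances moderated over all tested genes. Depth was estimated from low values of genes with 1 GENCODE M21 transcript, and reads per gene from that depth and the exon length in GRCm38, so both are approximate and counting error alone is covered. Older symbols were matched through RefSeq synonyms. Outside the 10 genes and the Tet genes, each list gave its 2 members with the smallest unadjusted p (1 of these is not reported here), and profile likeness gave 3 genes for Trp53 and for Cdkn1a. Alternatives covered the pseudocount, filter, scaling, variance trend, replicate block and each embryo left out; the tissue covariates were added after seeing the data. The 10 genes and the lists were chosen with earlier results of these data known.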

Additional observations from a re-analysis of the deposited data

Results flagged for a closer look

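In 6 of the 58 groups of 4 embryos examined, 1 embryo lay far from the other 3 of its group, by Dixon's criterion; chance gives about 1 in 20 such groups. Of the 10 genes this held for Trp53inp1 alone, at 2.24 RPKM in Control replicate 2 with the next Control embryo at 3.83 RPKM. Control replicate 2 was also low for Tet2, at 0.444 RPKM, the next being 0.795 RPKM. The sestrin gene Sesn2 was low in TKO-labelled replicate 2, at 1.72 RPKM, the next being 2.43 RPKM. Ccnb1 was high in TKO-labelled replicate 4, at 190.2 RPKM, with the next at 135.4 RPKM. In Control replicate 4, Lrdd was high at 1.56 RPKM (next 1.04 RPKM) and Wrap53 low at 11.5 RPKM (next 12.8 RPKM).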

How the results depend on the processing

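No alternative brought any of the 10 genes past the threshold. Leaving out 1 embryo at a time gave 0 to 29 genes with larger and 0 to 7 with smaller values in TKO-labelled embryos past the threshold over all genes, the 29 and 7 arising without TKO-labelled replicate 1, against 1 and 0 with all embryos. The count of 1 was 2 with a minimum of 5 RPKM and 0 with no filter, the replicate block, or the decidua or parietal endoderm covariate. Quantile normalization gave 1 gene with smaller values, and the epiblast covariate 7 with larger and 1 with smaller values. The labels do not say that the replicate numbers pair embryos, so the numbers were not taken as pairs. Deviations of same-numbered embryos had correlations of -0.0045, 0.40, 0.26 and -0.021, which cannot decide whether the embryos were paired. With the replicate block 0 genes passed, and the adjusted p of Trp53 was 0.222.

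Signs turned for these log2 differences: Perp at -0.0035 and Mdm4 at -0.055 after median-ratio scaling; Mdm2 at -0.025, Perp at -0.053, Mdm4 at -0.060 and Wrap53 at -0.0099 after quantile normalization; Mdm2 at -0.058, Cdkn1a at -0.20 and Perp at -0.47 with the parietal endoderm covariate; and Mdm4 at -0.013 with the epiblast covariate. With 1 embryo left out, Cdkn1a ranged from -0.060 to 0.205, Perp from -0.095 to 0.23 (below 0 without TKO-labelled replicate 2 or Control replicate 3) and Phlda3 from -0.0067 to 0.55. Mdm4 ranged from -0.055 to 0.053, below 0 without replicate 4 of either group. Tet1 passed the threshold only without TKO-labelled replicate 1 (limma adjusted p = 0.0315), and not without any other single embryo (0.0784 to 0.32). The cause was not tested. Median-ratio scaling left 839 larger and 673 smaller genes at an unadjusted limma p under 0.05, 55.5% larger, against 1448 and 376, 79.4% larger, as deposited. Plk2 could not be fitted without any one TKO-labelled embryo, since it then missed the filter, and 5 of the 10 genes missed the 5 RPKM filter. At most 54 estimated reads in any Control embryo limit the precision of Plk2.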
